A study of Mus musculus with 7 samples.

Results

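The 36 subunit genes and 7 assembly factor genes of mitochondrial complex I were examined in whole hearts of newborn mice (postnatal day 0, strain C57BL/6). The members were taken by gene symbol, as Nduf followed by a, b, c, s or v and a number for subunits and as Ndufaf and a number for assembly factors, and they are 43 of the 13788 genes measured. Cardiomyocytes lacked Rxra and Rxrb, which encode retinoid X receptors, in 4 hearts (edKO, replicates 5, 6, 15 and 33), and 3 wild-type hearts served as controls (WT, replicates 1, 2 and 28). The labels do not give the Cre driver, the deleted exons, or the sex or litter of the mice. Separate biological replicates are stated, so p-values measure the spread between these hearts. Levels are in normalised reads per 1000000, with the SD over the 3 WT or 4 edKO libraries beside a mean, and values per library follow the replicate order above. Differences are edKO minus WT of log2(level + 1).

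Complex I is the NADH:ubiquinone oxidoreductase that feeds electrons into the respiratory chain and pumps protons across the inner mitochondrial membrane. Its matrix arm holds an N module, which oxidises NADH, and a Q module, which passes the electrons to ubiquinone. Its membrane arm is built around subunits encoded in mitochondrial DNA, while the remaining subunits are nuclear, and assembly factors bring the modules together without staying in the enzyme. In the heart, oxidative metabolism expands around birth, and retinoid X receptors act there as partners of PPAR and other nuclear receptors.

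No promoter binding was measured in these samples, and the promoters are shown to give the sequence context of the nuclear genes the results turn on. RefSeq start sites on GRCm38.p6 gave the 250 bases before the start for 38 of the 43 members. Ndufaf1 is shown because it passed the test between genotypes (chr2:119662835-119663084, minus strand), Ndufaf4 as an assembly factor that did not (chr4:24897833-24898082, plus strand), and Ndufb8 as a subunit that followed the other subunits closely between libraries (chr19:44555443-44555692, minus strand). Each runs 5′ to 3′ towards the start site, and capitals mark the matched motif.
Ndufaf1: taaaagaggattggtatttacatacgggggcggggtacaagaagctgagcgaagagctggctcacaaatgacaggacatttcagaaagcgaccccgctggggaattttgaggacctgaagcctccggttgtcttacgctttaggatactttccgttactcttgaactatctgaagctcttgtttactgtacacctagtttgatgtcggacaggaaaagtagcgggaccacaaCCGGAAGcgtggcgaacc
Ndufaf4: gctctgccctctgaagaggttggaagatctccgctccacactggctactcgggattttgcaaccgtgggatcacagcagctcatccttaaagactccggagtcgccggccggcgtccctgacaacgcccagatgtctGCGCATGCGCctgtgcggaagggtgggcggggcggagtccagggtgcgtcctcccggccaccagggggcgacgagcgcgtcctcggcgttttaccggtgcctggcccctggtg
Ndufb8: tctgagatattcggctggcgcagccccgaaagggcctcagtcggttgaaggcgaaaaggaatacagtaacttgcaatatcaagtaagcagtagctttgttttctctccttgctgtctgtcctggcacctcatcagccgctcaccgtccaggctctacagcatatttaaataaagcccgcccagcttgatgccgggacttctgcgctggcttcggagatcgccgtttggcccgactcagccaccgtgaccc

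In the Ndufaf1 window the capitals are CCGGAAG, the core that ETS factors such as GABPA bind, beginning 18 bases before the start. In the Ndufaf4 window they are a match to GCGC and TGCGC parted by any base, the site of NRF1, a regulator of nuclear respiratory genes, beginning 113 bases before the start. Ndufb8 held none of the motifs searched on either strand. The NRF1 letters stood before 6 of 32 subunits with a window and 1 of 6 assembly factors, against 9.01% of the 10037 measured genes with a window. The ETS letters stood before 3 of 32 subunits and 1 of 6 assembly factors, against 15.2% of genes. The direct repeat of AGGTCA with any base between the copies, to which retinoid X receptor dimers bind, occurred before 0 members and 0.0498% of genes. The letters TCAAGGTCA of estrogen-related receptors occurred before 0 members and 0.299% of genes, and AAGATGGCG of YY1 before 0 members and 1.37%. A match describes these letters only.

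The samples were checked first. The recovered totals ran from 12108464 to 24912403 reads, and all 10 cardiomyocyte markers were measured, with summed levels of 51140 to 59880 in WT and 61060 to 66690 in edKO. Among them Myh7, the fetal and slow myosin heavy chain, was called higher in edKO (difference 1.27, limma adjusted p = 0.00995), and without it the sums overlapped, at 46050 to 55080 in WT and 47740 to 51630 in edKO. The mean Rxra level was 61.6 ± 1.99 for WT against 66.1 ± 6.74 for edKO, that of Rxrb was 48.2 ± 3.18 against 38.9 ± 4.00, and neither passed the test. Whole-gene levels in whole hearts do not check the deletion, because other cells keep both genes. The 8 fibroblast markers had a median difference of -0.36, with 7 negative and 0 called. Their sums were 5822, 5558 and 7052 in WT and 3408, 5032, 3645 and 6965 in edKO, so the groups overlapped. Positive differences were found for 5 of 7 endothelial and 4 of 6 smooth muscle and pericyte markers, with 0 called, against 4.21% of all genes. In whole hearts, fewer cells of a type and less RNA per cell cannot be told apart. WT replicate 1 stood apart from the other WT libraries for complex I genes, so several results are also given without it.

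No nuclear subunit of complex I differed between the genotypes by the test, and an assembly factor, Ndufaf1, was lower in edKO. Across all genes, limma with Benjamini-Hochberg adjustment called 580 (4.21%), of which 2.13% of all genes were lower and 2.08% higher in edKO. Among the 36 subunits 0 were called by limma, and 0 by edgeR, DESeq2 or voom on the recovered reads. An unadjusted p under 0.05 was reached by 1 subunit (Ndufb10), against 19.2% of all genes. The groups were separate, with every edKO library on one side of every WT library, for 0 of 36 subunits and 17.4% of all genes (9.04% lower and 8.41% higher in edKO). The subunit differences ran from -0.30 to 0.19, and 32 of 36 were negative against 50.7% of all genes, with a median of -0.08 against -0.00 for all genes. The 95% interval of limma lay within a 1.5-fold change either way for all 36 subunits and for 8652 of the 13788 genes. It did so too for every measured gene of complexes II, III and IV and ATP synthase. The sign of the median rests on WT replicate 1: without it the median was 0.02 and 15 of 36 differences were negative. The count of separate subunits also rests on single WT libraries: it was 6 without WT replicate 1, against 26.0% of all genes, and 7 without WT replicate 28, against 25.9%.

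**Figure D1:**
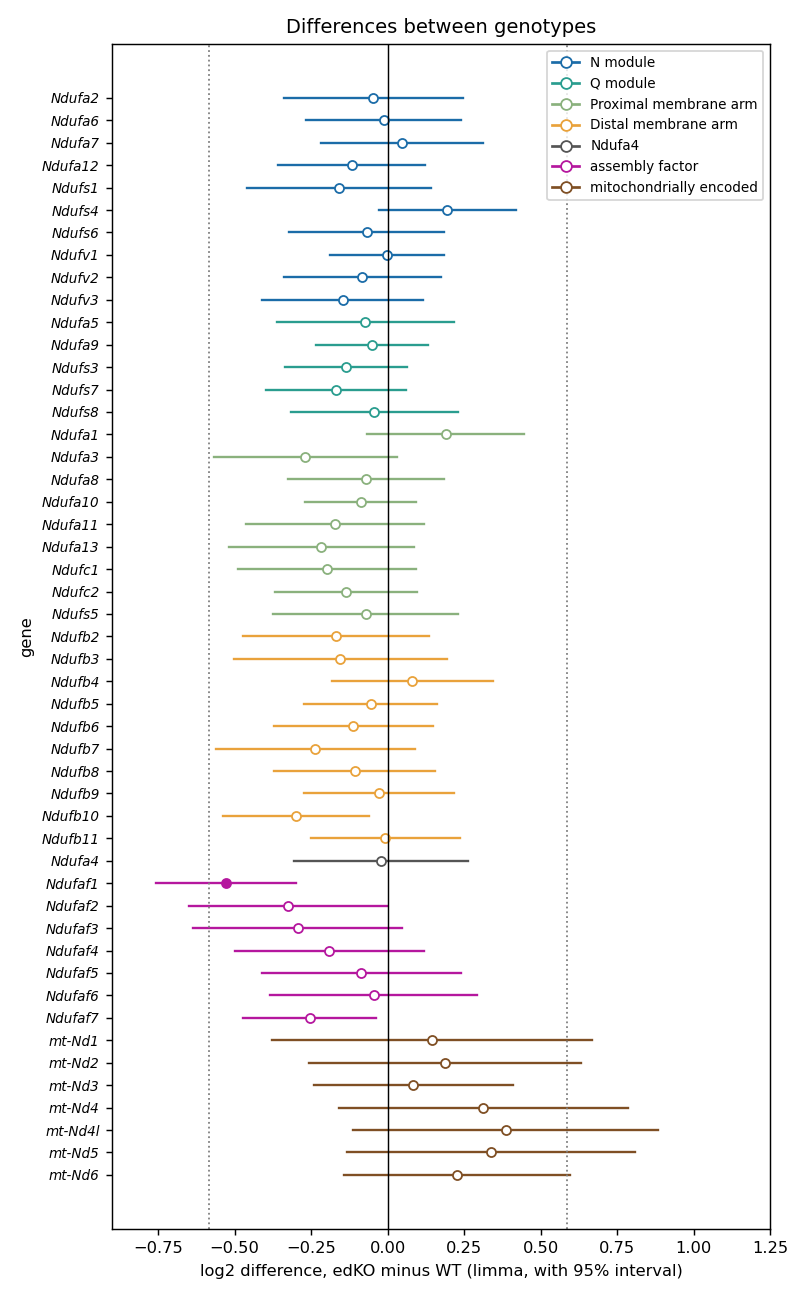
Log2 difference between edKO and WT (x axis) for each complex I gene drawn (y axis; 35 of the 36 nuclear subunits), coloured by module, with the 95% limma interval as a bar; the filled point passed the test, and dotted lines mark a 1.5-fold change. Every nuclear subunit interval drawn lies inside the dotted lines and Ndufaf1 has the lowest value, -0.53.

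The N module, which holds the flavin and the first iron-sulfur clusters, had 10 measured subunits with a median difference of -0.06. Ndufv1, the subunit that binds flavin mononucleotide and takes electrons from NADH, stood at 604, 597 and 556 in WT replicates 1, 2 and 28. In edKO replicates 5, 6, 15 and 33 it stood at 567, 601, 601 and 569. The groups overlapped throughout and the difference was -0.00 ± 0.09 (SE), with a 95% interval of -0.19 to 0.18. Ndufs1, the largest subunit of the module and a carrier of several iron-sulfur clusters, was at 470, 572 and 563 in WT and at 483, 499, 570 and 377 in edKO. It was lowest in edKO replicate 33, unlike most subunits, and its difference was -0.16 (limma adjusted p = 0.564).

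Ndufs4, an accessory subunit whose loss causes Leigh syndrome in humans and a like disease in mice, had the largest positive difference of the subunits. Its levels were 172, 138 and 129 in WT and 164, 164, 172 and 165 in edKO. The 4 edKO libraries lay above WT replicates 2 and 28 and at or below WT replicate 1, and the difference was 0.19 ± 0.10 (SE; limma adjusted p = 0.329). Without WT replicate 1 it was 0.32, and it did not pass the test in any fit that left out a library (adjusted p 0.104 to 0.660). Ndufs6, a zinc-binding subunit, had the highest level per kilobase in the N module (382 per kb) by the lengths of principal transcripts. By the lengths of all coding transcripts Ndufs1 was highest, at 776 per kb. For Ndufs1 that length was 651 nt, against 2625.5 nt by principal transcripts, so the value of 776 depends on the definition used. Ndufs6 stood at 269, 209 and 194 in WT and at 212, 199, 204 and 231 in edKO. The highest of all libraries was WT replicate 1.

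The 6 measured subunits of the Q module all had negative differences with all libraries kept, from -0.17 to -0.04, with none called. Negative differences were found for 50.7% of all genes, and without WT replicate 1 for 15 of the 36 subunits. Ndufs7, which carries the last iron-sulfur cluster before ubiquinone, had the lowest difference of the Q module. Its levels were 242, 202 and 178 in WT and 186, 177, 181 and 187 in edKO. The edKO libraries lay close together and overlapped with WT replicate 28, and the difference was -0.17 with a 95% interval of -0.40 to 0.06 (limma adjusted p = 0.410). With a library left out the difference of Ndufs7 ran from -0.27 to -0.05. The 7 nuclear subunits of the catalytic core, which are conserved in bacteria, had differences of -0.17 to -0.00 with 0 called. An unadjusted p under 0.05 was reached by 0 of these 7.

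In the proximal membrane arm, next to the Q module, the differences of 9 subunits ran from -0.27 to 0.19. Ndufa1, a small membrane subunit encoded on the X chromosome, stood at 155, 113 and 119 in WT and at 152, 137, 136 and 159 in edKO. All edKO libraries were above WT replicates 2 and 28, and the difference was 0.19 (limma adjusted p = 0.411). With a library left out the difference of Ndufa1 ran from 0.10 to 0.33. Ndufa3 had the highest level per kilobase of this arm (338 per kb), with 244, 164 and 175 in WT and 164, 141, 153 and 178 in edKO. Its difference was -0.27 (limma adjusted p = 0.311) and moved to -0.09 without WT replicate 1, the library in which it was highest.

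In the distal membrane arm 9 of 10 measured subunits had negative differences with all libraries kept, against 50.7% of all genes. Without WT replicate 1, 15 of the 36 subunits of all modules were negative. Ndufb10, a subunit with conserved disulfide bonds, had the lowest difference of all subunits. It stood at 338, 292 and 244 in WT and at 230, 229, 231 and 249 in edKO. Only edKO replicate 33 exceeded the lowest WT library, and the difference was -0.30 ± 0.11 (SE), with a 95% interval of -0.54 to -0.06 (limma adjusted p = 0.158). With a library left out the difference of Ndufb10 ran from -0.42 to -0.19. After removal of library trends with transcript length and GC content its adjusted p was 0.0424 with principal transcripts and 0.0695 with all coding transcripts.

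Ndufb7, an intermembrane-space subunit, was at 265, 187 and 170 in WT and at 165, 160, 163 and 205 in edKO. The difference of -0.24 (limma adjusted p = 0.417) became -0.05 without WT replicate 1. Ndufb4, an accessory subunit, stood at 65.0, 53.4 and 45.7 in WT and at 55.5, 54.2, 56.8 and 63.3 in edKO, with a difference of 0.08 (limma adjusted p = 0.752). Ndufb4 cannot be read firmly, since 17.8% of its 61-nt windows also occur in transcripts of other genes such as Ndufb4c. For the other subunits this share reached 29.9% in Ndufb6, where the windows are shared with Smim27. Ndufb8 had the highest level per kilobase of this arm, at 598 per kb, with a difference of -0.11. Ndufab1, the acyl carrier protein of the complex, and Ndufa4l2 were measured but lie outside the symbol pattern, and neither passed the test.

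Ndufa4, named as a complex I subunit and now assigned to cytochrome c oxidase, was the most abundant member per length, at 954 per kb. It stood at 635, 446 and 462 in WT and at 516, 452, 491 and 546 in edKO. The ranges overlapped, and the difference was -0.02 with a 95% interval of -0.30 to 0.26. The other 35 subunits had mean levels of 35.5 to 598 per kb, and the assembly factors 12.1 to 26.0 per kb. These levels use the median length of the APPRIS principal transcripts, a choice made after other lengths had been seen. With the median of all coding transcripts the ranges were 35.5 to 776 and 12.1 to 31.7 per kb, where 776 is Ndufs1 at a length of 651 nt. The assembly factors lay below every subunit by each length.

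**Figure D2:**
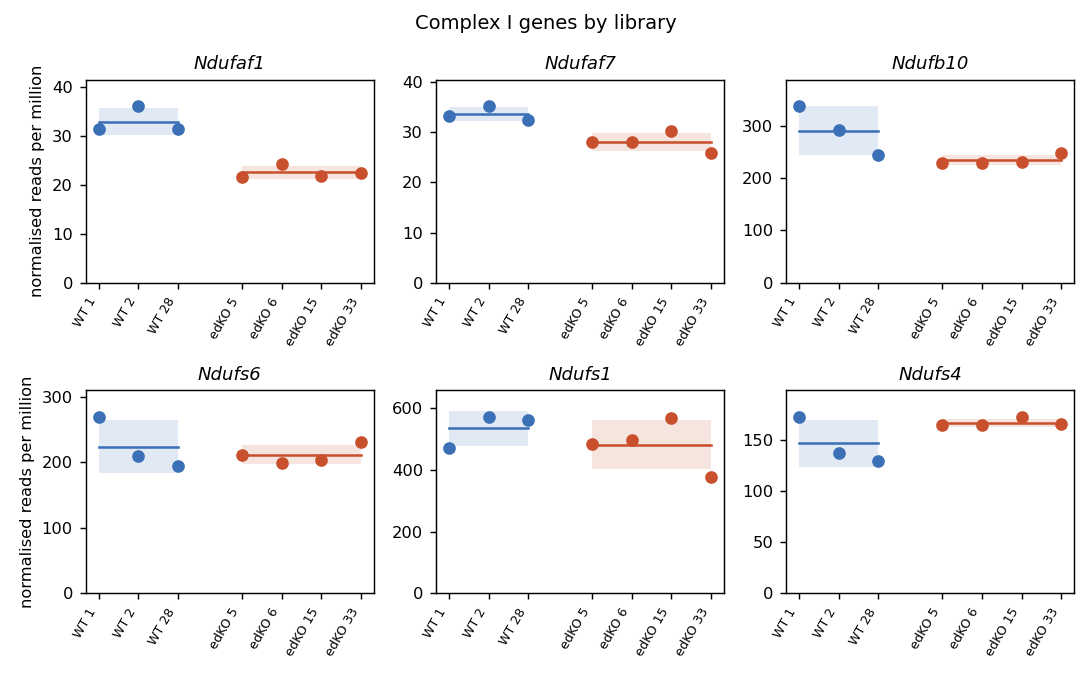
Normalised reads per 1000000 (y axis, from 0) in each library (x axis) for 6 members; points are libraries, lines are group means and bands 1 SD on either side. For Ndufaf1 the 4 edKO libraries lie at 21.6 to 24.4, under the WT libraries at 31.4 to 36.1, while the groups overlap for Ndufb10, Ndufs6, Ndufs1 and Ndufs4.

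All 7 assembly factors had negative differences, with a median of -0.26. Without WT replicate 1 the median was -0.15 and 5 of 7 were negative, Ndufaf5 and Ndufaf6 turning to 0.02 and 0.06. With all libraries, 1 of the 7 was called lower (Ndufaf1), against 2.13% of all genes. The groups were separate for 2 of the 7 (Ndufaf1 and Ndufaf7), both lower in edKO, against 9.04% of all genes in that direction. Ndufaf1 (ENSMUSG00000027305, chromosome 2, 119655446 to 119662827, minus strand, GRCm38) encodes an assembly factor that holds intermediates of the membrane arm at the inner membrane. Its level was 31.4, 36.1 and 31.5 in WT and 21.6, 24.4, 21.8 and 22.5 in edKO. Every edKO library was below every WT library, the gap from 24.4 to 31.4 being wider than the spread within either group. The mean fell 1.46-fold, to 22.6, with an SD of 2.72 in WT and 1.28 in edKO, a log2 difference of -0.53 ± 0.10 (SE), a 95% interval of -0.76 to -0.30 and a limma adjusted p of 0.0171.

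None of the 61-nt windows of Ndufaf1 occurs in transcripts of another gene. With edgeR, DESeq2 and voom on the recovered reads the adjusted p of Ndufaf1 was 0.0130, 0.00073 and 0.0201. Leaving out a library kept the difference between -0.56 and -0.46, but the call held in 3 of 7 such fits. The adjusted p was 0.0548 without WT replicate 1, 0.112 without WT replicate 2, 0.0598 without WT replicate 28 and 0.0526 without edKO replicate 15.

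Ndufaf7, an assembly factor with methyltransferase activity, stood at 33.253, 35.247 and 32.475 in WT and at 28.045, 28.001, 30.378 and 25.844 in edKO. The libraries did not overlap, but the difference of -0.26 ± 0.10 (SE) did not pass the test (limma adjusted p = 0.187). Ndufaf2, a late factor that joins before the N module is complete, was at 24.545, 19.567 and 16.328 in WT and at 14.611, 16.005, 14.575 and 17.698 in edKO. Its groups overlapped, the difference was -0.32 (limma adjusted p = 0.259), and 63.7% of its windows are shared with other genes, mostly B230220B15Rik, so its reads are uncertain in origin.

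Ndufaf3 and Ndufaf4, partners in assembly of the Q module, had differences of -0.29 and -0.19. Ndufaf5, which in human cells hydroxylates an arginine of NDUFS7, stood at 23.7, 22.0 and 15.9 in WT and at 20.5, 16.8, 18.6 and 20.4 in edKO. Ndufaf6, linked in human cells to the making of ND1, was at 15.451, 11.932 and 12.474 in WT and at 15.484, 13.593, 11.044 and 11.384 in edKO. For these last genes the groups overlapped fully, with differences of -0.09 and -0.05 (limma adjusted p = 0.790 and 0.899).

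Assembly genes outside the Ndufaf names were listed as the companions of these factors. Of 12 listed, 9 were measured, with 0 called by limma, 1 at an unadjusted p under 0.05 (19.2% of all genes) and a median difference of -0.16. The groups were separate and lower in edKO for 2 of the 9, against 9.04% of all genes. Foxred1, an oxidoreductase needed for assembly, stood at 76.7, 82.2 and 79.9 in WT and at 68.0, 64.7, 70.5 and 52.4 in edKO. Every edKO library was below every WT library, with a difference of -0.32 (limma adjusted p = 0.130). Tmem70, which acts in ATP synthase and complex I assembly, was separate by a narrow gap, the highest edKO library at 63.78 and the lowest WT library at 63.93, with means of 69.0 ± 5.90 in WT and 59.7 ± 4.71 in edKO (limma adjusted p = 0.280). The partners of Ndufaf1 in the membrane-arm assembly complex had differences of -0.20 for Acad9, -0.09 for Ecsit, 0.04 for Tmem126b, -0.21 for Timmdc1 and -0.16 for Tmem186, with 0 called.

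The 7 mitochondrially encoded subunits, which form the proton-pumping core of the membrane arm, all had positive differences. Their median was 0.23 and their range 0.08 to 0.39, with 0 called by limma and 0 at an unadjusted p under 0.05. The median was 0.41 without WT replicate 1, 0.14 without WT replicate 2 and 0.13 without WT replicate 28. The summed level of mt-Nd1, mt-Nd2, mt-Nd3, mt-Nd4, mt-Nd4l, mt-Nd5 and mt-Nd6 was 46120, 29120 and 31070 in WT and 48230, 34210, 40400 and 41840 in edKO. WT replicate 1 lay above 3 of the 4 edKO libraries, so the groups overlapped.

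mt-Nd1, the most abundant of them in reads, had a mean of 12009 ± 3410 for WT and 13086 ± 2052 for edKO, with a difference of 0.15 and a 95% interval of -0.38 to 0.67. mt-Nd4l had the largest difference, 0.39, with an interval of -0.11 to 0.88. The differences were 0.19 for mt-Nd2, 0.08 for mt-Nd3, 0.31 for mt-Nd4, 0.34 for mt-Nd5 and 0.23 for mt-Nd6. Their standard errors were 0.15 to 0.24, beside 0.08 to 0.16 for the 43 nuclear members. Of their windows, 97.9% for mt-Nd3, 98.7% for mt-Nd4l and 61.9% for mt-Nd4 also occur in nuclear copies, so these levels are uncertain in origin.

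The ratio of the summed mt-Nd level to the summed nuclear subunit level was 4.19, 3.15 and 3.62 in WT and 5.31, 3.94, 4.55 and 4.45 in edKO. The means were 3.65 ± 0.517 and 4.56 ± 0.564, and WT replicate 1 lay above the lowest edKO library. All 10 blood and immune markers were measured. Their summed level was 40460, 24130 and 28410 in WT and 53860, 32520, 41130 and 27810 in edKO. The mt-Nd and blood sums were each highest in edKO replicate 5 and lowest in WT replicate 2, and the part of blood RNA in the mt-Nd levels was not tested.

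**Figure D3:**
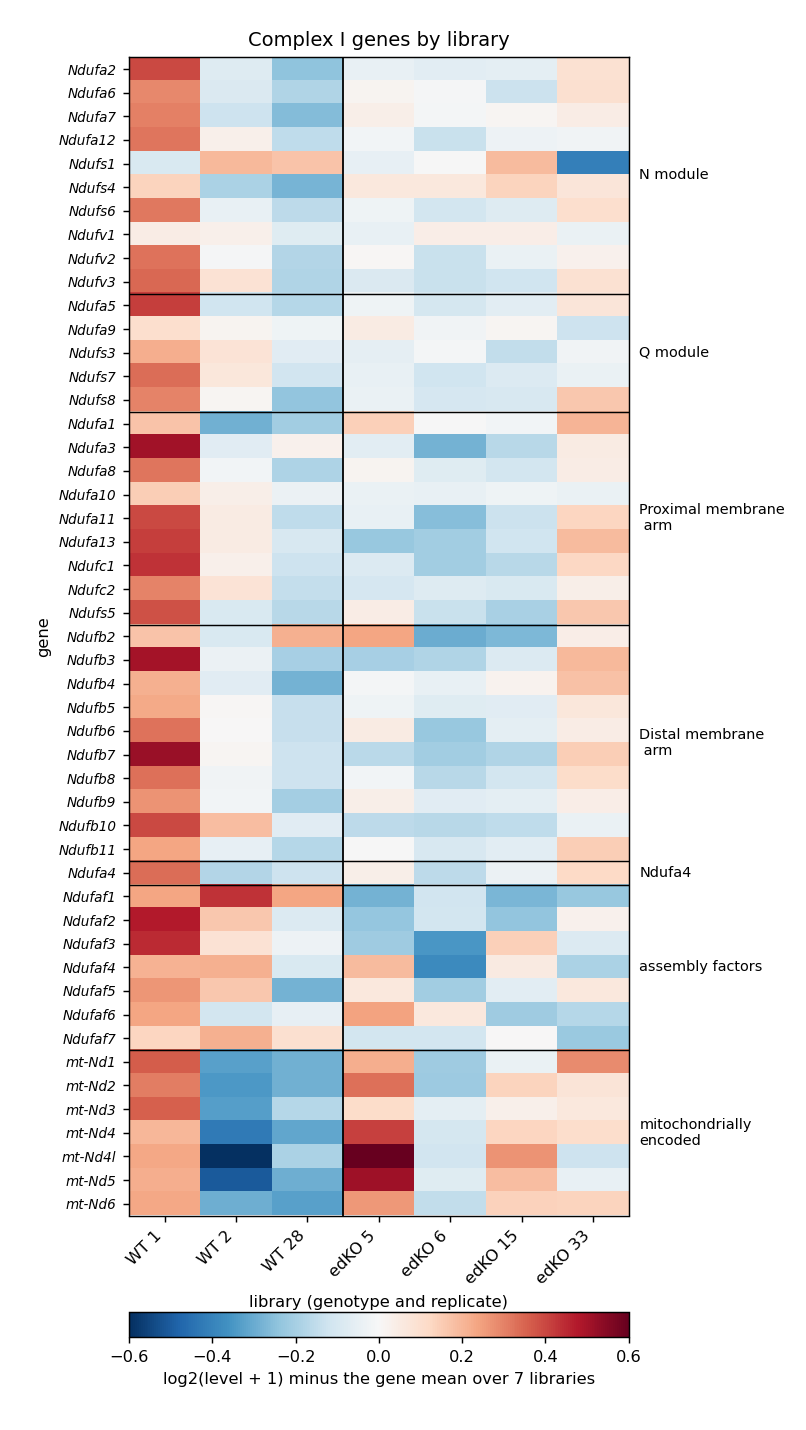
Log2 level minus the mean of the gene over the 7 libraries (colour) for each complex I gene drawn (rows, by module; 35 of the 36 nuclear subunits) and library (columns; the vertical line parts WT from edKO). WT replicate 1 is red for most subunits, Ndufs1 departs from the others, and Ndufaf1 is red in all WT and blue in all edKO libraries.

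The nuclear subunits spread further within WT than the genotypes lay apart, with a mean summed level of 9614 ± 1255 in WT against 9017 ± 311 in edKO. The summed subunit level was 11020, 9234 and 8593 in WT replicates 1, 2 and 28 and 9090, 8686, 8879 and 9412 in edKO replicates 5, 6, 15 and 33. The edKO sums lay inside the WT range, and WT replicate 1 was the highest. Of the 36 subunits, 33 were highest of all libraries in WT replicate 1, against 16.9% of all genes. Within WT, 34 subunits were highest in replicate 1 and 31 lowest in replicate 28. Within edKO, 26 were highest in replicate 33 and 23 lowest in replicate 6.

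The median SD over libraries was 0.25 in WT and 0.09 in edKO on the log2 scale. Over the 630 pairs of subunits, the median correlation across the 7 libraries was 0.81 (Pearson) and 0.62 (Spearman), given as a description. These points share a library and its depth. The Pearson median was 0.47 without WT replicate 1, 0.47 without WT replicates 1 and 28 and 0.71 over the 4 edKO libraries alone. With the group means removed and all libraries kept it was 0.89.

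Ndufs6, Ndufb8 and Ndufb5 followed the mean of the other subunits most closely, with r of 0.99, 0.98 and 0.98. Ndufb8 stood at 508, 399 and 370 in WT and at 399, 360, 374 and 436 in edKO, and Ndufb5 at 334, 286 and 259 in WT and at 280, 271, 272 and 299 in edKO. Both were highest in WT replicate 1 and, within edKO, in replicate 33. The least close were Ndufs1 (r of -0.50), Ndufv1 (0.32) and Ndufb2 (0.34). Ndufb2, a distal-arm subunit, stood at 95.4, 79.4 and 98.3 in WT and at 99.9, 68.8, 70.1 and 87.2 in edKO. An r above 0.9 was reached by 21 of 36 subunits and 0 of 7 assembly factors, against 0.989% of the 13745 other genes. For Ndufaf1 and Ndufaf7 it was 0.23 and 0.18. These r values use all 7 libraries and were not computed without WT replicate 1. Without that library the median r over subunit pairs was 0.47.

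**Figure D4:**
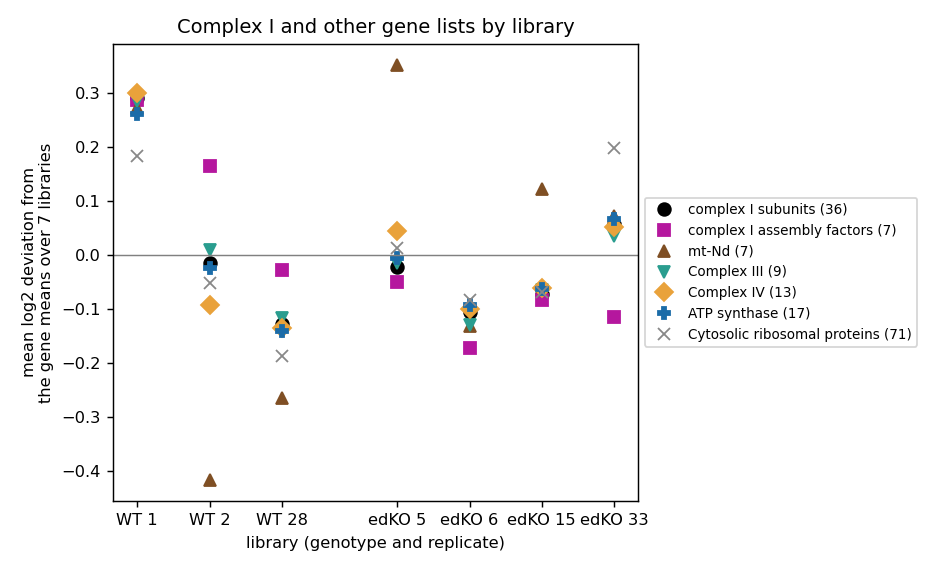
Mean log2 deviation from the gene means (y axis) of complex I lists, other respiratory complexes and ribosomal protein genes in each library (x axis); the number of genes in each list is in brackets. The nuclear lists of complexes I, III, IV and ATP synthase lie close together in every library, highest in WT replicate 1, while the mt-Nd genes are highest in edKO replicate 5.

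Nuclear genes of complexes III and IV and of ATP synthase were, like those of complex I, highest on average in WT replicate 1. The mean deviation of complex I subunits was 0.29, -0.02 and -0.13 in WT and -0.02, -0.11, -0.07 and 0.06 in edKO. In WT replicate 1 it was 0.29 for complex III, 0.30 for complex IV and 0.26 for ATP synthase. The 4 genes of complex II were also highest on average in WT replicate 1, but by less, with 0.12, 0.05 and -0.05 in WT. In edKO they differed from this course, with -0.03, -0.05, 0.05 and -0.09. Complexes II, III and IV and ATP synthase had 4, 9, 13 and 17 measured genes. Limma called 0 genes in each of these lists, against 4.21% of all genes. An unadjusted p under 0.05 was reached by 1 gene of the 4 lists together, Sdhc of complex II, against 19.2% of all genes. Their median differences were -0.05 for complex II, -0.10 for complex III, -0.03 for complex IV and -0.07 for ATP synthase, beside -0.08 for complex I.

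Genes outside respiration shared part of this course. The 71 ribosomal protein genes of the cytosol had deviations of 0.18, -0.05 and -0.19 in WT and 0.01, -0.08, -0.07 and 0.20 in edKO. Within WT and within edKO the libraries ranked as they did for complex I subunits. The ribosomal protein genes were highest of all in edKO replicate 33, the subunits in WT replicate 1. In WT replicate 1 the 2744 genes with the shortest transcripts had a median deviation of 0.11, and the 2743 with the longest -0.07. Subunit transcripts had a median length of 866 nt against 2862 nt for all genes. Across the 36 subunits the correlation of log2 length with the excess of WT replicate 1 over the other WT libraries was -0.73, or -0.51 with the length over all coding transcripts. After removal of library trends with length and GC content the mean subunit deviation in WT replicate 1 was 0.21, and in the other libraries it lay between -0.07 and 0.01.

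**Figure D5:**
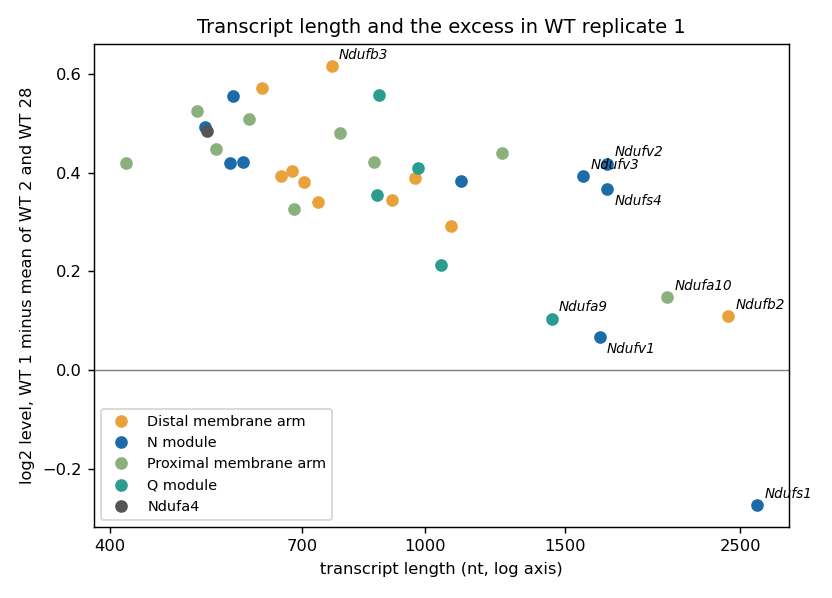
Excess of WT replicate 1 over the mean of WT replicates 2 and 28 (y axis, log2) against transcript length (x axis, log scale) for 35 of the 36 subunits, coloured by module. Most subunits have an excess above 0.2, while Ndufs1, the longest, is at -0.27.

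Among 14 regulators of respiratory genes 1 was called higher (2.08% of all genes were), Ppargc1a, the coactivator PGC-1α that drives mitochondrial biogenesis. Its level was 74.6, 95.9 and 94.2 in WT and 144, 128, 143 and 104 in edKO. The groups did not overlap, and the difference was 0.55 (limma adjusted p = 0.0421). The call held in 1 of 7 fits that left out a library, and was lost without any library other than edKO replicate 33 (adjusted p up to 0.166). Esrra, which with PGC-1α activates respiratory genes, had a difference of -0.00, Nrf1 of -0.03 and Gabpa of 0.02. Ppara, a partner of retinoid X receptors, had the largest difference of the 14, 0.69 (unadjusted p = 0.0140, limma adjusted p = 0.137), at 3.04, 5.74 and 4.91 in WT and 7.28, 9.37, 9.91 and 5.27 in edKO, where only WT replicate 2 overlapped with edKO. Tfam, which transcribes and packages mitochondrial DNA, had a difference of -0.21 (limma adjusted p = 0.277).

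Fatty acid oxidation, which supplies complex I with NADH, is given beside it. Of 20 listed genes 18 were lower and 1 higher in edKO by limma, against 2.13% and 2.08% of all genes. Their median difference was -0.92. Acadvl, which oxidises very long-chain acyl-CoA, stood at 692, 782 and 732 in WT and at 232, 242, 230 and 190 in edKO, a difference of -1.72 (limma adjusted p = 3.4e-06). Cpt2 of the carnitine shuttle and Hadha of the trifunctional protein had differences of -1.62 and -1.47. Among complex I subunits the lowest bound of a 95% interval was -0.57, for Ndufa3.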

How the data were processed

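RNA was sequenced from whole hearts of 3 WT and 4 edKO newborn mice. Per the labels' protocols, RNeasy columns gave the RNA, 1 to 10 ng of it went into amplified cDNA (Ovation RNA-seq System v2), and a HiSeq-2500 read 61 nt from one end. Per the submitters' processing notes, the tools were cutadapt, RSEM 1.3.1 and limma and the build GRCm38. In the sources used here their annotation release is not given.

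The values the authors deposited are signal values, normalised reads per 1000000, in 1 table of 13788 genes. Tested on the table, each equals the reads plus 0.5 over an effective library size, and 100% of 96516 values came out as whole reads within 1e-06. In edKO replicate 33, the deepest library, too few low values remained for a separate check of this step, so its reads, used in the totals and the tests on reads, rest on the formula alone. This scaling hides changes shared by most transcripts. Floors of 3 reads lay at 0.122 to 0.262, for counting error only, since amplified reads are not independent molecules. No pair of libraries agreed within sampling noise (chi-square per degree of freedom from 9.06). No value of another sample was used.

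Limma 3.58.1 in R 4.3.3 was run on log2(value + 1) over all genes and 7 libraries, with a mean-variance trend, no covariate, 2-sided tests and a threshold of 0.05 on the p adjusted over the whole table (Benjamini-Hochberg). Fold changes on this scale understate those of low genes. Tests of the recovered reads with edgeR 4.0.16, DESeq2 1.42.0 and voom, other pseudocounts, filters, variance settings and scalings, and each library left out were tried. Removal of library trends with transcript length and GC content was added after the data were seen, as were the 2 definitions of length. The limma, edgeR, voom and DESeq2 fits were tested on simulated data. There limma recovered 40.3% of 1.5-fold, 82.1% of 2-fold and 92.4% of 4-fold changes, with 7 false calls among 150. Most simulated 1.5-fold changes were thus missed. They were placed on genes drawn at random from all 13788, so these shares do not give the power for complex I genes.

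Members, lists and tests were chosen with earlier results of these data known. Members named with values were those that passed the test, had an unadjusted p under 0.05 or did not overlap, the extremes of the differences, the most abundant per length in each module, those following the other subunits most and least, and the mt-Nd genes. Some results for single genes, 1 subunit among them, are not reported here. Ndufaf3, Ndufaf4, Ndufs7, the partners of Ndufaf1, Foxred1, Tmem70, Sdhc, Esrra, Nrf1, Gabpa, Ppara, Tfam and Myh7 were named after their values were seen. Shared windows are 61-nt stretches, either strand, of GENCODE M21 transcripts. Python 3.11.15, pandas 2.3.3, numpy 2.4.6 and matplotlib 3.10.9 served for tables and plots.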

Additional observations from a re-analysis of the deposited data

Results flagged for a closer look

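In the 4 edKO libraries, 6 of 53 values tested had a highest or lowest library set far from the other 3. Chance gives about 1 in 20 for independent values, but these values share their libraries and are not independent. Replicate 33 of edKO was highest for Ndufb10 (249.4), Ndufb7 (204.8) and Ndufa2 (137.9). The next edKO library stood at 231.1, 165.1 and 125.4 for these genes. Replicate 15 of edKO was highest for Ndufs4 (172.2) and Ndufa10 (397.4), where the other 3 libraries lay close together, and replicate 6 of edKO was lowest for Ndufa12 (173.7). The part of replicate 33, which had the most reads, in these values was not tested. Without it the subunit median was -0.11 and Ndufaf1 had an adjusted p of 0.0151 (limma).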

How the results depend on the processing

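With all libraries kept, the medians of the subunits, assembly factors and mt-Nd genes moved by less than the spread between replicates under every setting tried. That spread is taken from the same libraries, so it cannot judge the fits that left out a library. Leaving out each library gave -0.18 to 0.02 for subunits, -0.29 to -0.15 for assembly factors and 0.13 to 0.41 for mt-Nd genes. The genes called among all genes numbered 370 without the trend, 1284 with library weights, 1052 with DESeq2, and 222 to 1177 with a library left out. Subunits called were 0 in every setting but the length and GC removal with principal transcripts, where Ndufb10 made it 1. Assembly factors called ran from 0 to 1 with a library left out and were 1 elsewhere. Separate subunits numbered 0, against 1 under median centring, 2 under quantile normalisation, 3 and 2 after length and GC removal with principal and with all coding transcripts, and 0 to 7 with a library left out (6 without WT replicate 1, 7 without WT replicate 28).

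Differences near 0 changed sign: Ndufa4 to 0.027 with library weights; Ndufv1 to 0.032 with quantile normalisation, 0.010 with library weights, and 0.0052 and 0.0063 after length and GC removal with principal and all coding transcripts; mt-Nd1 to -0.063 with quantile normalisation; and mt-Nd3 to -0.016 and -0.021 after these removals. With a library left out, the ranges were -0.115 to 0.140 for Ndufa4, -0.251 to 0.0233 for Ndufaf5, -0.132 to 0.0602 for Ndufaf6, -0.0388 to 0.211 for Ndufb4, -0.141 to 0.0427 for Ndufb5, -0.202 to 0.0263 for Ndufb8, -0.165 to 0.0717 for Ndufs6, -0.0396 to 0.0202 for Ndufv1 and -0.0571 to 0.286 for mt-Nd3. Where no construction shows the cause, it was not tested. No paired analysis was possible because the groups share no replicate number.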
